A study of Mus musculus with 6 samples.

Results

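The 9 genes described here encode 6 CXC chemokines (Cxcl1, Cxcl2, Cxcl3, Cxcl5, Ppbp and Pf4), the chemokine receptor Cxcr2 and the colony-stimulating factors Csf3 and Csf2. They were taken by symbol, with 1 transcript row per symbol, from 24063 symbols in the count files. The series holds transcript counts from 6 bulk libraries, 3 of SA mice with penile tumors, whose genotype is PB-Cre+ Smad4L/L ApcL/L, and 3 of the normal penile epithelium of C57BL/6 mice (WT). All 6 mice were 5 months old, and the tumors arose without a carcinogen. The Cre gene is driven by a promoter that responds to the androgen receptor, so that deletion of Smad4 and Apc is limited to cells in which this promoter is active, and the other cells of a tumor keep both genes. The WT mice carried neither Cre nor the floxed alleles and the labels give a strain only for them, so the deletions, the presence of Cre and the strain cannot be told apart.

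Neutrophils leave the blood along gradients of chemokines. Cxcl1, Cxcl2, Cxcl3, Cxcl5 and Ppbp (also named Cxcl7) carry the Glu-Leu-Arg motif before their first cysteines and bind Cxcr2, the main chemokine receptor of mouse neutrophils. Pf4 (Cxcl4) has the same fold but lacks that motif and is not a Cxcr2 ligand. Csf3 (G-CSF) drives the production and release of neutrophils from the bone marrow, and Csf2 (GM-CSF) promotes the growth and activation of granulocytes and macrophages. In squamous epithelia, keratinocytes can secrete several of these ligands, while Cxcr2 is carried mainly by the neutrophils that arrive. Ppbp and Pf4 are best known as proteins of the platelet granule.

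The gene rows held between 23828283 and 110509147 counts per sample, and SA tumor 3 was the deepest library. Levels are given in CPM, counts scaled to a common library total after TMM normalization, and 3 counts, the smallest level taken as detectable, equal 0.0244 CPM in SA tumor 3 and 0.0993 to 0.137 CPM in the other libraries. Intervals and floors cover counting error only. Counts over the deleted genes, which still include the exons that are not floxed, were 36.6, 36.1 and 46.1 CPM for Smad4 in the SA tumors against 61.2, 69.7 and 72.5 in WT penises, and 253, 194 and 197 against 62.5, 85.3 and 91.1 CPM for Apc. These values do not test recombination. Krt5 and Krt14, which mark basal keratinocytes, were at 3071 CPM or above in every sample. The libraries labelled as WT epithelium also held smooth muscle transcripts, with Myh11 at 586 to 794 CPM against 3.12 to 36.7 in SA tumors. In such bulk samples, fewer cells of a type and less RNA per cell cannot be told apart.

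In the SA tumors 7 of the 9 genes rose, namely Cxcl1, Cxcl2, Cxcl3, Cxcl5, Ppbp, Cxcr2 and Csf3. All 5 Cxcr2 ligands were among them, with fold changes of the group means from 5.50 for Cxcl1 to 117 for Cxcl2. Pf4, the chemokine of the set that does not bind Cxcr2, did not pass the test. Csf2 had at most 4 counts in any sample and was too low to be tested. A gene is said to rise or fall where its log2 fold change in edgeR's quasi-likelihood test was at least 2 in size with an adjusted p under 0.01, and 9.41% of the 16336 genes tested rose and 3.59% fell by this rule. None of the 8 genes tested here fell. The median log2 fold change was 4.01 over the 8 genes and 0.03 over all genes tested. At an adjusted p under 0.05 and any size of change, the same 7 genes passed, against 53.4% of all genes tested. In each of these 7 genes the lowest SA tumor was above the highest WT penis, which held for 32.7% of all genes tested. With 3 mice in each group, an exact permutation test of a single gene cannot go below a two-sided p of 0.10. Values after ± beside a log2 fold change are the standard errors of the fit. No test of the 9 genes as a set was made, since they were chosen with results of these data known.

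**Figure D1:**
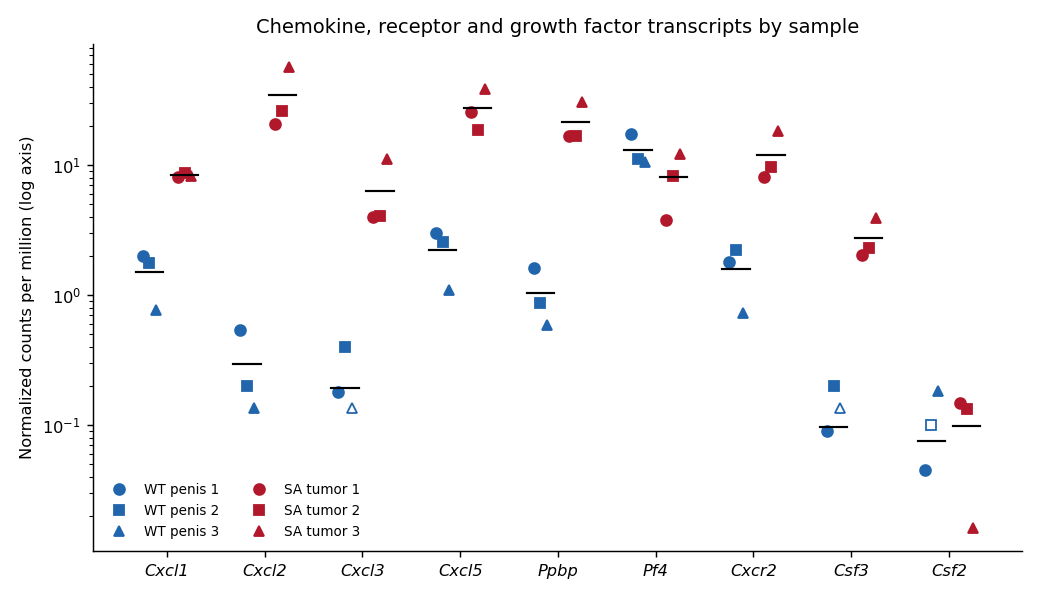
Level in CPM (log axis) of the 9 genes in each WT penis (blue) and SA tumor (red). Horizontal bars are group means (n = 3), and open symbols mark a library with 0 counts, drawn at the level of 3 counts. The red symbols lie above all blue ones for 7 genes, and the colors overlap for Pf4 and Csf2.

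Cxcl1, Cxcl2 and Cxcl3 are the closely related GRO-type chemokines of the mouse. They lie on chromosome 5 of mm10, Cxcl3 (NM_203320) at chr5:90786101-90788093, Cxcl1 (NM_008176) at chr5:90891245-90893121 and Cxcl2 (NM_009140) at chr5:90903899-90905938. Their transcription is a standard example of induction through NF-κB. Upstream sequence from RefSeq (build GRCm38.p6, the same assembly as mm10) was available for 7 of the 9 genes, and the stretches from 120 to 31 bases before the annotated start are shown for the 3 GRO-type genes because all carry the same site, and for the neighbours Ppbp and Pf4, which do not. The sequences run 5′ to 3′ on the plus strand, and capitals mark matches to the NF-κB consensus.
Cxcl1, chr5:90891125-90891214: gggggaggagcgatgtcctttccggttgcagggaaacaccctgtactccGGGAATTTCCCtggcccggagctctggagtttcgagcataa
Cxcl2, chr5:90903779-90903868: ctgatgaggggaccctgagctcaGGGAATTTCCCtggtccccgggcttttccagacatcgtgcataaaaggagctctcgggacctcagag
Cxcl3, chr5:90785981-90786070: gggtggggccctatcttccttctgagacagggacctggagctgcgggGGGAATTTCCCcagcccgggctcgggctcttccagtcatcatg
Ppbp, chr5:90768398-90768487: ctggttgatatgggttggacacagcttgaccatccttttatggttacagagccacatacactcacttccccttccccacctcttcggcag
Pf4, chr5:90772315-90772404: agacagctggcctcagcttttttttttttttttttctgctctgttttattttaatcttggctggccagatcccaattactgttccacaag

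The run of 11 bases GGGAATTTCCC is the longest that the 250 bases upstream of Cxcl1, Cxcl2 and Cxcl3 have in common, and it begins 71, 97 and 73 bases before their annotated starts. It holds 2 overlapping matches to the NF-κB consensus, 1 on each strand. This exact run, picked because these genes share it, occurred in 14 of 32851 RefSeq promoters of the same length (0.0426%), their own included. Any match to the consensus occurred in 3.90%. No match lay in the 250 bases of Ppbp, Pf4, Cxcr2 or Csf2. The AP-1 motif TGANTCA, searched on both strands, occurred once, in Ppbp, and in 6.75% of all promoters. The TCF/LEF motif CTTTGAT, searched on both strands, occurred in none of the 7 and in 3.21% of all. A match is a description of the letters and does not show that a factor binds.

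Of the 3 genes, Cxcl2 (also named MIP-2) changed most. It had 12, 6 and 3 counts in the WT penises, or 0.542, 0.200 and 0.137 CPM, and 20.6, 26.0 and 56.7 CPM in the SA tumors. The WT libraries lay just at or above the limit of detection, and SA tumor 3 stood above the other tumors. The fit gave 6.91 ± 0.620 on the log2 scale (adjusted p = 0.000111), and 7.61 with WT penis 1 left out.

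Cxcl1 (KC), by contrast, was already present in normal tissue. It had 1.99, 1.77 and 0.775 CPM in the WT penises and 8.03, 8.64 and 8.28 CPM in the SA tumors, so that the groups were apart and the tumors nearly equal. The highest tumor was 1.08 times the lowest for Cxcl1 and 2.75 times for Cxcl2. Cxcl1 rose by 2.45 ± 0.314 on the log2 scale (adjusted p = 0.000296). Set against Cxcl1 per transcript length, Cxcl2 was at a ratio of 0.239, 0.0992 and 0.155 in the WT penises and 2.25, 2.63 and 6.00 in the SA tumors, without overlap.

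Cxcl3 had 4, 12 and 0 counts in the WT penises, or 0.181, 0.401 and 0 CPM, and 3.98, 4.04 and 11.1 CPM in the SA tumors. The fitted 4.92 ± 0.768 on the log2 scale (adjusted p = 0.00116) had the largest standard error among the 8 genes tested. Cxcl3 missed the threshold without WT penis 1 (adjusted p = 0.0106), and its log2 fold change was 6.09 without WT penis 2 and 4.22 without SA tumor 3. Of the stretches of 76 bases (the read length) in its GENCODE transcript, 3.72% also occur in Cxcl2, and 1.88% of those of Cxcl2 occur in Cxcl3. The assignment of reads from these stretches to 1 of the 2 genes is uncertain, while Cxcl1 shared no such stretch with another gene. Of the stretches of Cxcr2, 1.05% also occur in genes outside the 9, as do 0.603% of those of Cxcl5.

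Cxcl5 (LIX, NM_009141, chr5:90759298-90761625) and Ppbp (NM_023785, chr5:90768518-90770063) stand at the other end of the cluster, 6.89 kb apart. Cxcl5 had 2.98, 2.57 and 1.09 CPM in the WT penises and 25.6, 18.5 and 38.2 CPM in the SA tumors. Every tumor was well above every WT sample, and the gene rose by 3.62 ± 0.402 on the log2 scale (adjusted p = 0.000220).

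Ppbp had 1.63, 0.868 and 0.592 CPM in the WT penises and 16.8, 16.6 and 30.5 CPM in the SA tumors. Again the groups were far apart and SA tumor 3 was the highest. Ppbp rose by 4.39 ± 0.403 on the log2 scale and had the smallest adjusted p of the 8 genes tested, 6.39e-05.

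**Figure D2:**
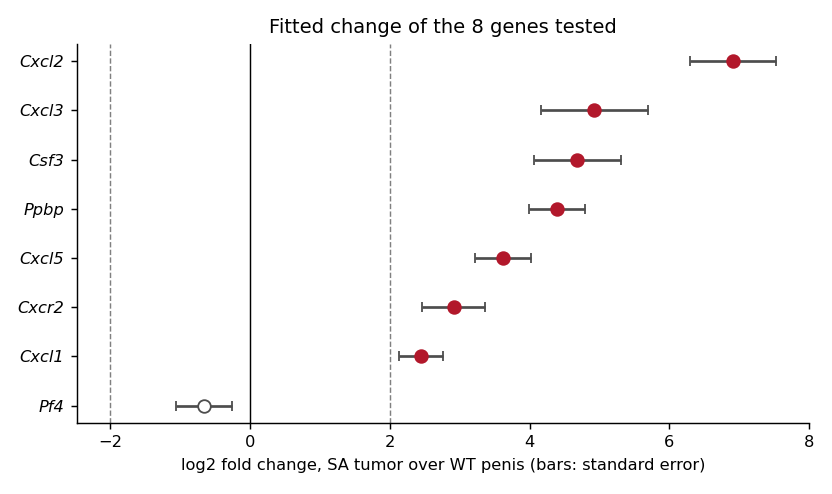
Log2 fold change of SA tumor over WT penis for the 8 genes tested, from edgeR's quasi-likelihood fit, with bars for the standard error. Filled points passed both thresholds and dashed lines mark a log2 fold change of 2 in size. Cxcl2 stands at 6.91, Cxcl1 at 2.45, and the open point of Pf4 at -0.67.

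Pf4 (NM_019932, chr5:90772435-90773383) begins 2.37 kb beyond the end of Ppbp, the gene with which it shares the platelet granule. It had 17.4, 11.05 and 10.5 CPM in the WT penises and 3.79, 8.28 and 12.1 CPM in the SA tumors. SA tumor 3 was above 2 of the WT samples, so that the groups overlapped. The fit gave -0.67 ± 0.4002 on the log2 scale (adjusted p = 0.198). Without SA tumor 3 it was -1.10 (adjusted p = 0.0355), a change still below the fold threshold. Per transcript length, Ppbp was at 0.0509, 0.0428 and 0.0306 of Pf4 in the WT penises and at 2.42, 1.09 and 1.37 in the SA tumors. The ratio of these platelet proteins' transcripts thus lay below 1 in every WT penis and above 1 in every SA tumor.

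Of 12 genes that mark platelets and megakaryocytes, listed apart from Ppbp and Pf4, 6 were tested, none rose and Gp5 fell, with a log2 fold change of -2.23 (adjusted p = 0.000558). Their summed level was 77.8 to 109 CPM in SA tumors and 151 to 186 in WT penises, most of it from Gp1bb, which other cells also express. Without Gp1bb the sum was 16.65, 23.2 and 34.7 CPM in the SA tumors and 28.9, 24.3 and 29.75 in the WT penises. The groups then overlapped, and SA tumor 3 was the highest sample. The platelet glycoproteins Gp9 and Gp6 were at 0 to 0.167 and 0 to 0.228 CPM in all 6 samples, and the platelet tubulin Tubb1 at 0.0334 to 0.456 CPM. Treml1, a receptor stored in platelet granules, was too low to be tested but had 5, 10 and 72 counts in the SA tumors (0.186, 0.331 and 0.585 CPM) and 2, 0 and 1 in the WT penises (0.0904, 0 and 0.0456 CPM), with every tumor higher. The platelet integrin gene Itgb3 had a log2 fold change of 0.42 (adjusted p = 0.262). Of 7 red blood cell genes 5 were tested and none passed, but Hba-a1 and Hba-a2 had equal counts in all 6 samples and are in effect 1 measurement. With Hba-a2 left out, the summed level of the other 6 was 11.9 to 122 CPM in SA tumors and 114 to 176 in WT penises. The part of trapped blood in the values of Ppbp and Pf4 was not tested.

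Pf4 is also transcribed by some macrophages of tissues. Among 11 macrophage genes none passed both thresholds, and their median log2 fold change was -0.12. The log2 fold changes in that list ran from -1.97 for Folr2 (adjusted p = 0.000721) to 0.36 for Csf1r (adjusted p = 0.485). They were -1.65 for F13a1 (adjusted p = 0.00602), -1.57 for the scavenger receptor Cd163 (adjusted p = 0.0025) and -1.31 for Lyve1 (adjusted p = 0.00702). These genes and Folr2 were lower in every SA tumor than in every WT penis. The mannose receptor Mrc1 had 0.16, and C1qa, C1qb and C1qc were between -0.12 and -0.01. The summed level of the list was lowest in SA tumor 1, at 158 CPM, where Pf4 was lowest too, against 318 to 436 CPM in the other 5 samples. Whether macrophages account for the Pf4 values was not tested.

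**Figure D3:**
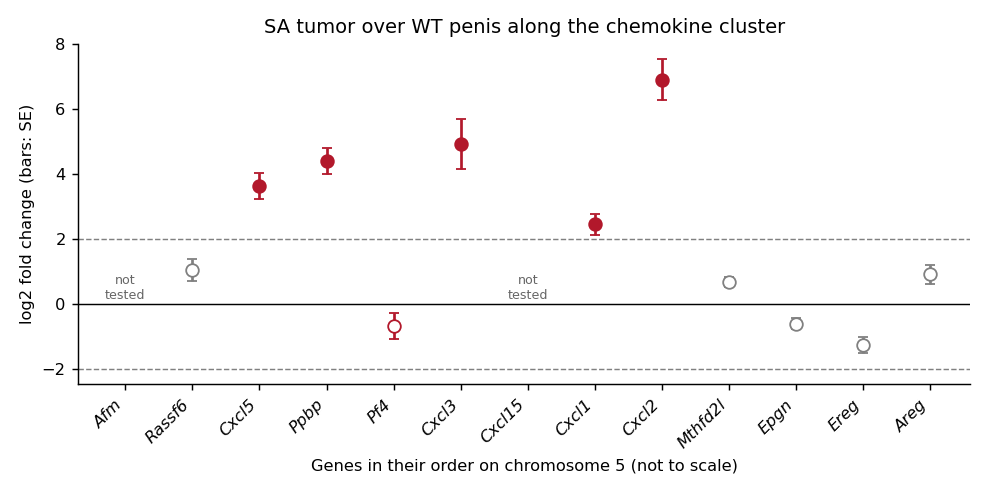
Log2 fold change of SA tumor over WT penis, with its standard error, for the genes of the chemokine cluster (red) and those within 250 kb of it (gray), in their order on chromosome 5. Filled points rose. Pf4 lies between Ppbp and Cxcl3 and did not, and no gray gene passed the thresholds.

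Within the chromosome 5 region, the rise was not shared by all genes. The 6 chemokine genes span 147 kb. Of 7 other genes within 250 kb of them, 5 were tested and none rose or fell, against 9.41% and 3.59% of all genes tested. All 5 still had an adjusted p under 0.05, with smaller changes in both directions. An adjusted p under 0.05 held for 53.4% of all genes tested. Every SA tumor was above every WT penis for Rassf6, Mthfd2l and Areg, which held for 32.7% of all genes tested. Every tumor was below every WT penis for Epgn and Ereg, and how often that held over all genes was not counted. Rassf6, on the far side of Cxcl5, had a log2 fold change of 1.04 (adjusted p = 0.0334). Cxcl15, a lung-associated chemokine that lies between Cxcl3 and Cxcl1, had 7 counts in the 3 SA tumors together and 3 in the WT penises. The nearest gene beyond Cxcl2, Mthfd2l, an enzyme of mitochondrial folate metabolism, had a log2 fold change of 0.66 (adjusted p = 0.00731). The epidermal growth factor family genes that follow had values of -0.60 for Epgn (adjusted p = 0.0121), -1.27 for Ereg (adjusted p = 0.00459) and 0.91 for Areg (adjusted p = 0.0258). Around all 9 genes, 47 other genes lay within 250 kb and 37 were tested, of which 2 rose and 1 fell. Near Cxcr2 these were Vil1, a gene of actin bundling in microvilli, which rose by 6.72 on the log2 scale at a distance of 248 kb, and the focal adhesion gene Tns1, with a log2 fold change of -2.51 at 29.45 kb. Acsl6, an acyl-CoA synthetase gene 53.9 kb from Csf2, rose by 4.03.

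Levels of different genes were compared per transcript length, in the TPM values that the authors deposited. In WT penises Pf4 was highest, at 29.98 ± 6.85 TPM (SD, n = 3), and among the Cxcr2 ligands the order was Cxcl1 at 2.15 ± 0.847, Cxcl5 at 1.81 ± 0.744, Ppbp at 1.28 ± 0.585, Cxcl2 at 0.360 ± 0.246 and Cxcl3 at 0.259 ± 0.276. The ranges of neighbours in this order overlapped, apart from the step between Ppbp and Cxcl2. Within each WT penis, however, Cxcl1 was above Cxcl5, Cxcl5 above Ppbp and Ppbp above Cxcl2. Cxcl3 was above Cxcl2 in WT penis 2 only. Cxcr2 was at 0.706 ± 0.336 TPM, and Csf2 and Csf3 at 0.104 ± 0.134 and 0.0967 ± 0.103 (SD, n = 3). In SA tumors the order was Cxcl2 at 56.8 ± 33.7 TPM, Ppbp at 35.3 ± 14.2, Cxcl5 at 29.6 ± 11.6, Pf4 at 24.4 ± 13.03, Cxcl1 at 15.5 ± 0.391 and Cxcl3 at 11.2 ± 7.49 (SD, n = 3). Cxcr2 followed at 7.02 ± 3.36, Csf3 at 3.59 ± 1.42 and Csf2 at 0.169 ± 0.123 TPM. Here the ranges of neighbours in the order overlapped at every step but the last. Within each tumor, however, Cxcl2 was above Ppbp and Ppbp above Cxcl5, and likewise Cxcl3 above Cxcr2 and Cxcr2 above Csf3. The order of Cxcl5 and Pf4, of Pf4 and Cxcl1, and of Cxcl1 and Cxcl3 differed between tumors.

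The summed level of the 5 Cxcr2 ligands was 7.79, 6.70 and 3.10 TPM in the WT penises and 112, 109 and 225 TPM in the SA tumors. The makeup of that sum differed as well. Cxcl1 held 34.5%, 38.9% and 37.9% of it in the WT penises and 13.6%, 14.3% and 7.07% in the SA tumors. Cxcl2 held 8.23%, 3.85% and 5.87% in the WT penises and 30.5%, 37.7% and 42.5% in the SA tumors. The shares of these genes did not overlap between the groups. Cxcl5 held 30.9 ± 1.37% in WT penises and 20.3 ± 3.88% in SA tumors (SD, n = 3), also without overlap. The share of Ppbp was 22.3 ± 4.86% and 24.0 ± 1.02%, and overlapped. These shares are described with no test.

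**Figure D4:**
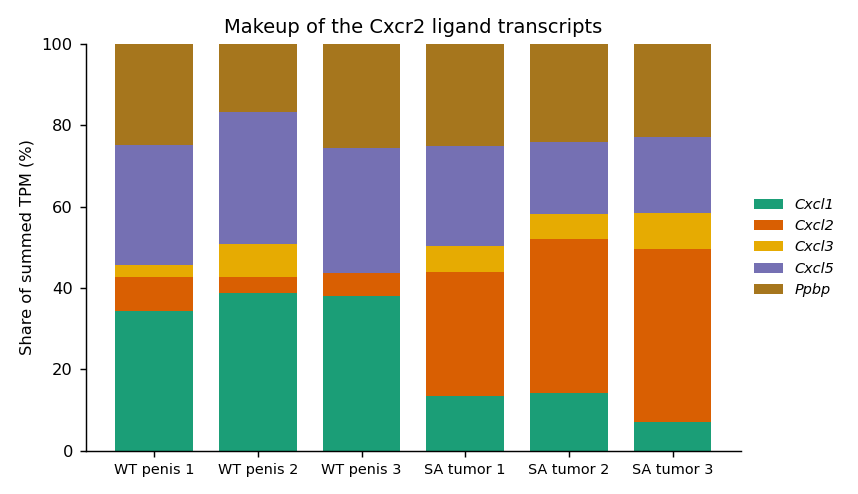
Share of each Cxcr2 ligand in the summed TPM of the 5 ligands, as stacked bars for each sample. In the WT penises Cxcl1 holds the largest share, 34.5% to 38.9%, and in the SA tumors Cxcl2 does, 30.5% to 42.5%.

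Cxcr2 (NM_009909) lies on chromosome 1 at chr1:74153994-74161246. It had 1.81, 2.203 and 0.729 CPM in the WT penises and 8.14, 9.60 and 18.2 CPM in the SA tumors. The groups did not overlap, and Cxcr2 rose by 2.91 ± 0.447 on the log2 scale (adjusted p = 0.000948). Cxcr1, the receptor gene beside it, was not tested. It had 82 counts in the 3 SA tumors together, 78 of them from SA tumor 3, and the tumors were at 0.0743, 0.0662 and 0.634 CPM. Pooled, this is 0.455 CPM (exact 95% Poisson interval 0.362 to 0.565), an interval that leaves out the spread between tumors. The WT penises had 0 counts, which allows up to 0.0498 CPM.

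Neutrophil markers moved with Cxcr2. Of 14 listed besides Cxcr2, 13 were in the files and 8 were tested, and 7 of these rose, with a median log2 fold change of 4.72 over the 8. S100a8 and S100a9, the calprotectin subunits that keratinocytes can also make, were at 582 to 1034 and 803 to 1368 CPM in SA tumors against 32.8 to 63.5 and 22.1 to 53.0 in WT penises. Retnlg, a marker of mature neutrophils, and the neutrophil collagenase Mmp8 rose by 5.73 and 4.84 on the log2 scale from levels of at most 0.136 CPM in WT penises. Ltf, which glandular epithelium also makes, did not pass (log2 fold change 0.46), and the genes of early granulocyte stages Elane, Mpo, Ngp and Camp were at 0.260 CPM or below in every sample. The summed level of the list was 1487 to 2530 CPM in SA tumors and 67.8 to 171 in WT penises, most of it from S100a8 and S100a9. Without them the sum was 55.5, 102 and 128 CPM in the SA tumors and 54.75, 46.9 and 12.98 in the WT penises, with Ltf, at 32.1 to 66.4 and 11.8 to 52.2 CPM, as a large part, and SA tumor 1 was close to WT penis 1. Set against Ptprc (CD45), which all leukocytes express, Cxcr2 was at 0.668, 0.492 and 0.442 in the SA tumors and at 0.184, 0.3 and 0.103 in the WT penises. Set per length against Csf3r, it was at 0.546, 0.434 and 0.368 in the SA tumors and at 1.32, 1.60 and 0.893 in the WT penises. How much of the Cxcr2 value reflects the number of neutrophils was not tested.

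Csf3 (NM_009971) lies on chromosome 11 at chr11:98700183-98703631. It had 2, 6 and 0 counts in the WT penises, or 0.0904, 0.200 and 0 CPM, near the limit of detection, and 2.04, 2.28 and 3.91 CPM in the SA tumors. The tumors were all above the WT samples. Csf3 rose by 4.68 ± 0.623 on the log2 scale (adjusted p = 0.000364), and the value was 5.83 with WT penis 2 left out. Csf3r, the gene of its receptor, had 1.76, 1.77 and 1.05 CPM in the WT penises and 19.1, 28.4 and 63.4 CPM in the SA tumors. It rose by 4.59 ± 0.539 on the log2 scale (adjusted p = 0.000487).

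Csf2 (NM_009969, chr11:54247270-54249899) stayed at the edge of detection. The SA tumors gave 4, 4 and 2 counts (0.149, 0.132 and 0.0162 CPM), and the WT penises 1, 0 and 4 (0.0452, 0 and 0.182 CPM). The group means were 0.0991 and 0.0758 CPM. Pooled over each group this is 0.0555 CPM (exact 95% Poisson interval 0.0266 to 0.102) in SA tumors and 0.0675 CPM (0.0219 to 0.158) in WT penises. A difference between the groups was not detectable at this depth. Its neighbour Il3, another cytokine of the same locus, had 1 count in the SA tumors and 0 in the WT penises. The receptor subunits of Csf2 were expressed in both groups, with Csf2ra at 17.0 to 32.2 CPM in SA tumors and 13.1 to 16.55 in WT penises and a log2 fold change of 0.65 (adjusted p = 0.0431). Csf2rb was at 25.05 to 65.9 against 11.6 to 15.4 CPM, with a log2 fold change of 1.59 (adjusted p = 0.00750) below the fold threshold.

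Among the 13 partner receptors and related ligands listed, 8 were tested and Csf3r was the only 1 that rose, while none fell. Ackr1, the atypical receptor of venules and red blood cells that binds these chemokines without signaling, was at 3.05, 4.44 and 4.74 CPM in the SA tumors and 10.6, 9.65 and 11.85 in the WT penises. Its log2 fold change of -1.38 (adjusted p = 0.000733) was below the fold threshold. The related growth factor Csf1 had a log2 fold change of -0.12 (adjusted p = 0.649).

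Of 14 cytokines and receptors that are known to induce the chemokines and Csf3, all were tested, 5 rose and none fell. Il1b had the largest change, from 0.273 to 0.968 CPM in the WT penises to 40.8 to 109 CPM in the SA tumors. The cytokines of the IL-17 family, which act on epithelium to raise Cxcl1, Cxcl5 and Csf3, were low in both groups. Il17a had 0.316, 0.1001 and 0.0911 CPM in the WT penises and 1.67, 1.69 and 1.33 in the SA tumors, a log2 fold change of 3.22 (adjusted p = 0.000566). Il23a, a subunit of the cytokine that sustains cells making IL-17, rose by 5.18 and Il17f by 2.28 on the log2 scale, and Tnf by 3.37. The groups overlapped for Il17c, a cytokine made by epithelium itself, at 0.362, 0.634 and 1.19 CPM in the WT penises and 1.82, 1.19 and 0.650 in the SA tumors (log2 fold change 0.70, adjusted p = 0.293). The receptor subunits had smaller values, with log2 fold changes of 0.42 for Il17ra and -1.27 for Il17rc.

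None of 8 genes of NF-κB signaling and transcript decay rose or fell. The feedback inhibitors of NF-κB, Nfkbia and Tnfaip3, had log2 fold changes of -0.70 (adjusted p = 0.000779) and -0.68 (adjusted p = 0.00119), and Zc3h12a, a ribonuclease that degrades cytokine transcripts, of -0.02 (adjusted p = 0.887). Of 11 genes of retention and adhesion, all tested, 3 rose and 1 fell. Cxcr4, the receptor that retains neutrophils in marrow, rose by 4.67 and the endothelial and platelet selectin Selp by 3.08 on the log2 scale, and the scavenging receptor Ackr3 had a log2 fold change of -2.08. Of 9 genes for other neutrophil attractants and their receptors, all tested, the formyl peptide receptor genes Fpr1 (also among the neutrophil markers) and Fpr2 rose and none fell. Ltb4r1, the high-affinity leukotriene B4 receptor, had a log2 fold change of -1.39 (adjusted p = 5.04e-05).

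The SA tumors were not alike in these genes. SA tumor 3 was highest for 7 of the 9, the exceptions being Cxcl1 and Csf2, and WT penis 3 was the lowest of its group for 8 of the 9, all but Csf2. Outside the 9, WT penis 3 was also lowest for Csf3r, Il1b, S100a8, S100a9, Ptprc and Il17a, but not for Krt5, Il23a or Tnf. How often these samples were highest or lowest over all genes was not counted. Among the tumors the highest was 2.79 times the lowest for Cxcl3, 2.23 for Cxcr2, 2.07 for Cxcl5, 1.91 for Csf3 and 1.84 for Ppbp. SA tumor 3 also had the highest summed level of 6 general leukocyte genes, 228 CPM against 78.6 and 147 in the other tumors and 53.2 to 83.3 in WT penises, and Ptprc in it was 3.37 times its level in SA tumor 1. Krt5 differed by 1.17 times at most between tumors. SA tumor 3 was the deepest library as well, and the part of depth and of leukocyte content in its values was not tested. Without SA tumor 3 the 7 genes still rose, with log2 fold changes from 2.45 for Cxcl1 to 6.33 for Cxcl2.

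**Figure D5:**
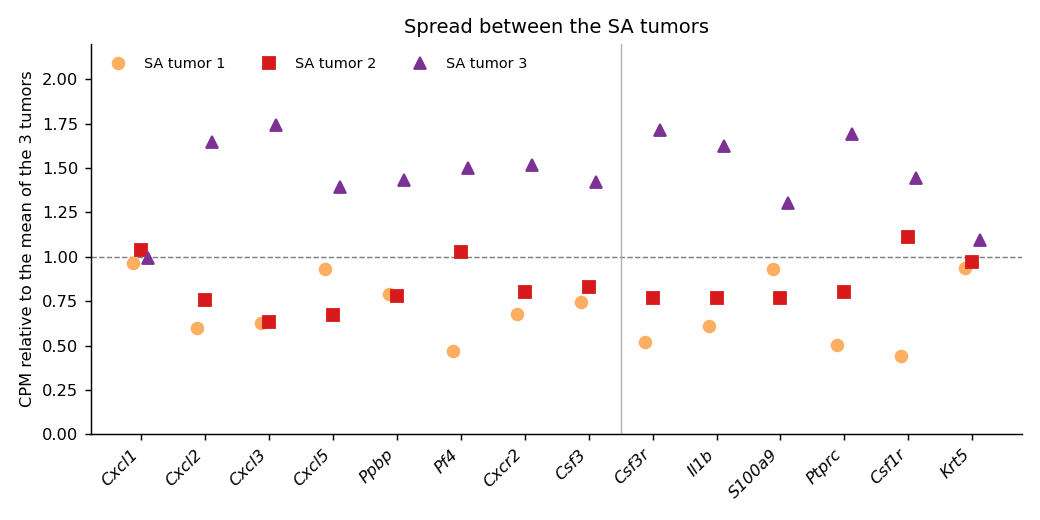
Level of each gene in each SA tumor, in CPM relative to the mean of the 3 tumors (dashed line at 1), for 8 of the 9 genes (left of the gray line) and for Csf3r, Il1b, S100a9, Ptprc, Csf1r and Krt5 (right). The tumors coincide for Cxcl1, and SA tumor 3 lies highest for the other 7 genes on the left.

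The remaining marker lists give the cell content beside these values. None of the 6 leukocyte genes passed both thresholds, with a median log2 fold change of 1.35. Of 11 T and innate lymphoid cell genes, 7 were tested and Il7r rose. Of 11 keratinocyte genes, Epcam rose and Krt15 fell, and the median was -0.82. None of 7 fibroblast and none of 6 endothelial genes passed, with medians of -0.69 and -0.66. Of 7 muscle genes, 6 were tested and 5 fell, with a median of -4.37. The part of these differences in cell content in the values of the 9 genes was not tested.

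As a description, each gene's log2 CPM over the 6 samples was compared with that of the 13822 genes averaging 100 or more counts per sample. Because the groups differ, many genes follow any gene that changed, and 1239 had a Pearson r over 0.95 with Cxcl2. The closest to Cxcl2 were Il4ra (r = 0.999), Ccdc88a (0.999) and Ppbp (0.999), and the closest to Ppbp were Cxcl2 (0.999), Ccdc88a (0.998) and S100a9 (0.998). Cxcr2 was followed most closely by Samsn1 (0.997), Cxcl3 (0.996) and Tro (0.996). Pf4 had 78 genes over 0.95, led by Lyl1 (0.992), Agtrap (0.991) and Fermt3 (0.990). Lyl1 and Fermt3 are genes of blood cells.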

How the data were processed

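Penile tissue RNA of 3 SA and 3 WT mice was sequenced from strand-specific libraries with paired ends. Alignment by the authors used TopHat and mm10, and counting used HTSeq. The versions are not given in the sources used here. The deposited files hold raw read counts for 33068 RefSeq transcript rows, with the FPKM and TPM values that the authors derived. TPM was used for levels between genes, and FPKM only to recover each row's length. Where a symbol had several rows, that with the highest mean count was used.

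Counts were tested with edgeR 4.0.16 in R 4.3.3 (filterByExpr, TMM, robust quasi-likelihood F-test, Benjamini-Hochberg adjustment over all 16336 genes). This replaced DESeq2, the study's tool, which was run as an alternative (version 1.42.0). The standard error is the log2 fold change divided by the square root of F. Log2 CPM used a prior count of 2. P-values set the difference between the groups against the spread between these mice. The fit estimated that spread for each gene with information from all genes tested.

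The 9 genes and all gene lists (5 pathway and 10 marker lists) were chosen with earlier results of these data known. Genes are named if they belong to the 9, are their receptors or neighbours within 250 kb, are the deleted genes, or are listed. Of list genes past both thresholds, up to the 4 with the largest changes per list and direction were to be named, and Il17f and S100a8 were added. These and other list genes are named for their role, after their values were seen, as was the choice of ratios. The 4 markers or cytokines Adgre1, Il36a, Il36b and Il36g were found under older symbols. Ly6g, Trbc2, Trdc and Tcrg-C1 were not used here. The values of 1 gene of the retention and adhesion list are not reported here. The fits were tested on simulated data. The alternatives were other scalings, filters, tests and transcript rows, a replicate block, and each sample left out.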

Additional observations from a re-analysis of the deposited data

How the results depend on the processing

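The 7 genes that rose did so under DESeq2, RLE and upper-quartile scaling, no filter, a mean of at least 50 counts, summed transcript rows, edgeR's glmTreat against a log2 fold change of 1, and the replicate block. With each sample left out in turn, 6 to 7 rose, and Cxcl3 without WT penis 1 was the exception. Of 112 fits of a single gene under an alternative, 111 kept the direction and the side of the thresholds of the value reported, and none reversed. Pf4 ranged from -1.10 to -0.34. DESeq2 gave Csf2 an adjusted p of 0.879. The pathway genes past the thresholds numbered 12 in all, and 9 to 12 under the alternatives. The mean share of Cxcl2 in the SA tumors was 36.9% and 34.1% to 40.1% with each tumor left out.

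The labels give both groups replicates 1 to 3. The deviations of same-numbered samples from their group means correlated at -0.135, -0.105 and 0.024, which shows no sign of pairing by number. So few samples cannot settle whether the numbers pair the mice. The replicate block left 7 of the genes past the thresholds, with 0 lower and 7 at an adjusted p under 0.05, and 11 pathway genes. Depth limits Csf2, and the WT values of Csf3, Cxcl2 and Cxcl3.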
